A study of Mus musculus with 8 samples.

Results

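Proteasome subunit genes were chosen by name. Every gene named in either expression table whose symbol is Psma, Psmb, Psmc or Psmd with a number, or Psme1 to Psme4, was taken, using the locus with the highest mean where a name occurred more than once. This gave 43 genes of 24631 names in the tables, and all 43 were present in both sexes. They encode the alpha and beta rings of the core particle (Psma1 to Psma8 and Psmb1 to Psmb11), the ATPases (Psmc1 to Psmc6) and the other subunits (Psmd1 to Psmd4, Psmd6 to Psmd8 and Psmd11 to Psmd14) of the regulatory particle, chaperones of its assembly (Psmd5, Psmd9 and Psmd10), and activators that can cap the core particle in its place (Psme1 to Psme4).

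The proteasome degrades proteins that carry ubiquitin. Its core particle is a barrel in which outer alpha rings gate the entry and inner beta rings hold the proteolytic sites, and the regulatory particle binds the ubiquitin chain, removes it and threads the unfolded protein into the barrel. In interferon-exposed and antigen-presenting cells the catalytic beta subunits are exchanged for those of the immunoproteasome, and in male germ cells Psma8 takes the place of its close relative Psma7 in the alpha ring and is needed for meiosis. Psme4 is an activator known from the degradation of acetylated histones in spermatids.

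RNA-Seq was performed on germ cells sorted by an Oct4-EGFP transgene from ovaries and testes at E15.5 (embryonic day 15.5), in 8 libraries, 2 for each of 4 groups. Snf5 CKO embryos were Snf5 fx/Δ with TNAP-Cre, in which Cre is expressed from the Alpl locus during the development of primordial germ cells and removes the first exon of Snf5 (Smarcb1), which belongs to the core of the SWI/SNF remodeling complex. According to the study, the controls mixed germ cells of Snf5 fx/+, Snf5 fx/Δ and Snf5 fx/+ with TNAP-Cre embryos, so that part of them carried a deleted allele or Cre. All libraries came from Oct4-EGFP embryos. The labels give C57BL/6 as the strain background and the methods a mixed background with 129/Sv and ICR. Most libraries pooled several embryos, whereas male Snf5 CKO replicate 2 came from a single embryo. The study estimated from these RNA-Seq data that recombination was incomplete in both sexes, and less complete in females than in males. Part of the Snf5 CKO germ cells therefore kept the gene.

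The values are FPKM, that is fragment numbers divided by the transcript length and the size of the library. Each sex was tested alone with limma on log2(FPKM + 1) over all genes that carry a name and averaged 1 FPKM or more (11520 in females and 12269 in males), with p adjusted by Benjamini and Hochberg over all of them. In what follows, "rose" and "fell" mean an adjusted p under 0.05, and a gene was "called" when the log2 fold change was also at least 1 in size. The added 1 makes fold changes of genes with low FPKM too small, and no p is given for a share or a single value, because an exact two-sided permutation test of 2 libraries against 2 has a smallest p of 0.333. An SD is that of 2 libraries (n = 2) and SE is the standard error of a log2 fold change. Fewer cells of a type and less RNA per cell cannot be told apart in such sorted bulk samples.

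As a check of the genotype, Smarcb1 fell in both sexes, from 22.9 ± 0.721 to 3.36 ± 1.25 FPKM in females (a log2 fold change of -2.48, SE 0.24, adjusted p = 0.00027) and from 154 ± 18.4 to 9.39 ± 0.940 FPKM in males (a log2 fold change of -3.90, SE 0.18, adjusted p = 0.0021). The germ cell markers Ddx4, Dazl, Mael, Dnd1, Dppa3 and Pou5f1 were all expressed. They summed to 1858 and 1901 FPKM in female controls and 2925 and 3118 FPKM in female Snf5 CKO, where 3 of 6 rose and 1 fell. In males the sums overlapped between the genotypes, at 4876 and 5259 FPKM in control and 4441 and 5005 FPKM in Snf5 CKO, where 3 of 6 fell. Of all genes tested 27.0% rose and 34.7% fell in females, and 21.0% rose and 25.3% fell in males. Markers of supporting cells were far lower and moved with the genotype in both sexes. They summed to 5.99 and 9.04 FPKM in female controls and 23.3 and 22.4 FPKM in female Snf5 CKO. In males they summed to 42.2 and 33.2 FPKM in control and to 161 and 211 FPKM in Snf5 CKO. Of these markers 5 of 5 tested rose in females and 6 of 7 in males. Leydig markers summed to 4.74 and 4.89 FPKM in female controls and 12.01 and 11.8 FPKM in female Snf5 CKO, and to 85.7 and 58.2 against 19.2 and 15.1 FPKM in males, where 3 of 5 fell. Summed stromal markers were lower in Snf5 CKO of both sexes, between 2.38 and 16.5 FPKM in all, and markers of blood, macrophages and endothelium overlapped between the groups in both. The part of these cells in the levels below was not tested. The total depth of the libraries is unknown, since the tables hold no counts. The steps of values under 0.05 FPKM place the depth between 1.24 and 2.45 times that of control replicate 1 in females and between 0.953 and 1.46 times in males, although such steps can also be read as a multiple of these depths.

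Proteasome subunit genes were abundantly transcribed in both sexes. The constitutive subunits, that is Psma1 to Psma7, Psmb1 to Psmb7, the ATPases, the base subunits Psmd1, Psmd2 and Psmd4 and the lid subunits, numbered 31 and lay between 40.1 and 763 FPKM in the female libraries and between 68.6 and 987 FPKM in the male libraries. Psmb2, Psmb6 and Psma2 were the 3 most abundant genes in both sexes. Psmb2 and Psmb6, a structural and a catalytic beta subunit, were at 569 and 652 FPKM in control and 639 and 763 FPKM in Snf5 CKO and at 434 and 569 FPKM in control and 435 and 576 FPKM in Snf5 CKO in females. Psma2, an alpha subunit, was at 325 and 435 FPKM in control and 470.1 and 639 FPKM in Snf5 CKO in females and at 528 and 744 FPKM in control and 542 and 904 FPKM in Snf5 CKO in males. In the males Psmb2 was at 733 and 949 FPKM in control and 587 and 845 FPKM in Snf5 CKO and Psmb6 at 698 and 987 FPKM in control and 547 and 752 FPKM in Snf5 CKO.

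The 3 least abundant genes in both sexes were catalytic subunits of specialised proteasomes. Psmb8 of the immunoproteasome was at or below 0.0718 FPKM in every female library and 0.311 FPKM in every male library. Psmb11, the catalytic subunit of the thymoproteasome of thymic epithelium, did not exceed 0.0880 FPKM in females, where it was listed at 0 in Snf5 CKO replicate 1, and 0.136 FPKM in males. Both fell short of the 1 FPKM minimum, so 41 of the 43 genes were tested in each sex. Psmb9 was at 0.989 and 1.73 FPKM in control and 0.790 and 0.938 FPKM in Snf5 CKO in females and at 1.48 and 2.40 FPKM in control and 2.61 and 3.10 FPKM in Snf5 CKO in males. The members in sum held 1.001% and 1.003% of the FPKM of named loci in the female controls and 1.32% and 1.21% in female Snf5 CKO, whereas in males they held 1.60% and 1.51% in control and 1.43% and 1.16% in Snf5 CKO.

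**Figure D1:**
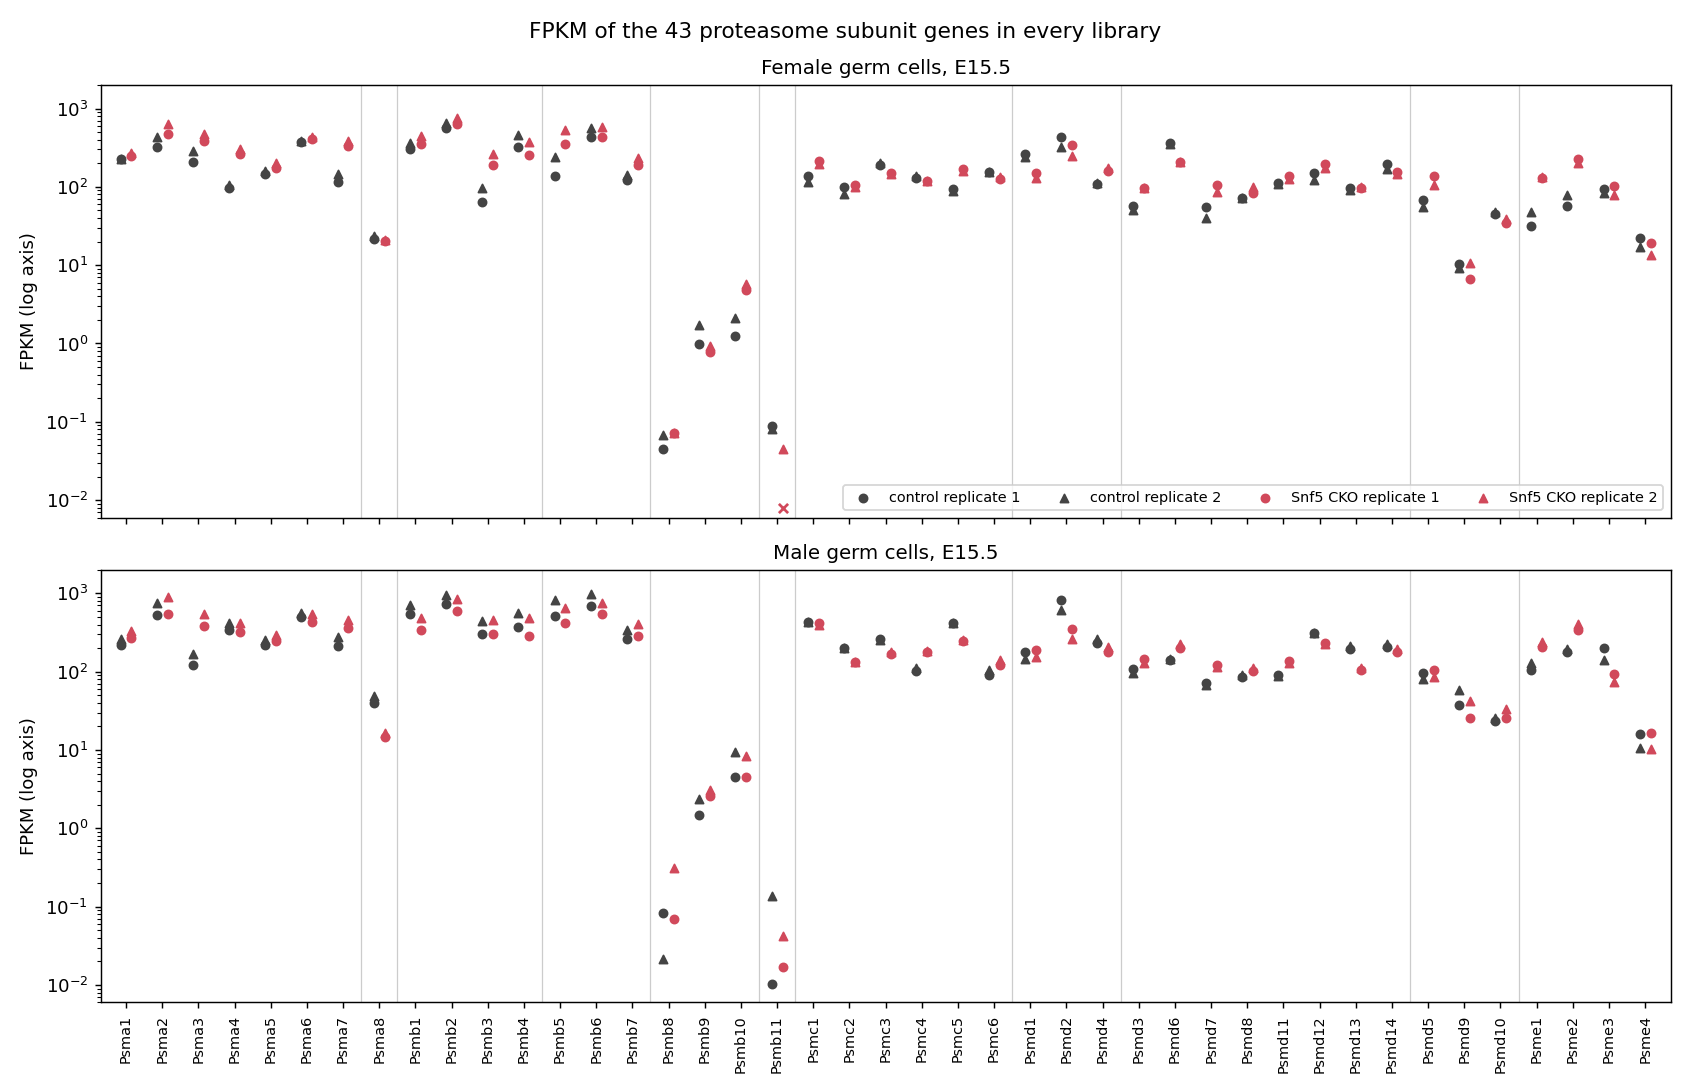
FPKM on a log axis of the 43 proteasome subunit genes in each library of female (top) and male (bottom) germ cells. Circles are replicate 1 and triangles replicate 2, dark for control and red for Snf5 CKO, the cross at the lower edge is a value of 0, and vertical lines separate the groups of subunits; the constitutive subunits lie between 40.1 and 987 FPKM, while Psmb8 to Psmb11 do not exceed 9.53 FPKM.

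In female germ cells the members moved upward more often than downward. Of the 41 tested members 8 were called higher in Snf5 CKO (19.5%, against 17.3% of all genes tested) and 0 were called lower (against 21.6%), the lowest log2 fold change being -0.86. By adjusted p alone 15 rose (36.6%, against 27.0%) and 2 fell (4.88%, against 34.7%), and an unadjusted p under 0.05 gave the same numbers, 15 and 2. The Snf5 CKO libraries both lay above both controls for 23 members (56.1%, against 36.4%) and below them for 9 (21.95%, against 45.1%), and the groups overlapped for 9. The median log2 fold change was 0.24, against -0.13 over all genes tested. With the replicate number as a block, 23 rose and 8 fell, and the 8 calls higher and 0 lower stood.

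In male germ cells 1 member was called higher (2.44%, against 14.4% of all genes tested) and 3 were called lower (7.32%, against 17.5%). By adjusted p alone 6 rose (14.6%, against 21.0%) and 6 fell (14.6%, against 25.3%). The Snf5 CKO libraries both lay above both controls for 14 members (34.1%, against 34.6%) and below for 12 (29.3%, against 40.0%), and the groups overlapped for 15. The median log2 fold change was -0.0089, against -0.072 over all genes. The replicate block left 1 call higher and 3 lower, but 14 rose and 16 fell by adjusted p. Over all male genes the block gave 4064 calls, against 3902 without it. The share of all male genes that rose or fell with the block is again not given, here or for the subunit groups below. Few of the male changes held without each library in turn. Of the 12 male members that rose or fell 1, Psma8, still passed in all 4 fits with a library left out (8.33%, against 53.2% of all male genes that passed), and 9 passed in none (against 13.01%), these being Psmc2, Psmc4, Psmc5, Psmd2, Psmd7, Psmd11, Psmd13, Psme1 and Psme2. Of the 17 female members 10 passed in all 4 (58.8%, against 69.9%), and 2, Psmd4 and Psmd6, in none. The female Psma3, Psmb5, Psmb7, Psmc1 and Psmd1 passed in some of these fits but not in all. Rescaling moved the median of all genes: to a common sum of named FPKM by 0.019 in females and by -0.16 in males, and by median of ratios by 0.15 and 0.14. The male median of the members was -0.18 and 0.14 under these scalings, so its sign depended on the scaling, whereas the female median was 0.26 and 0.40.

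**Figure D2:**
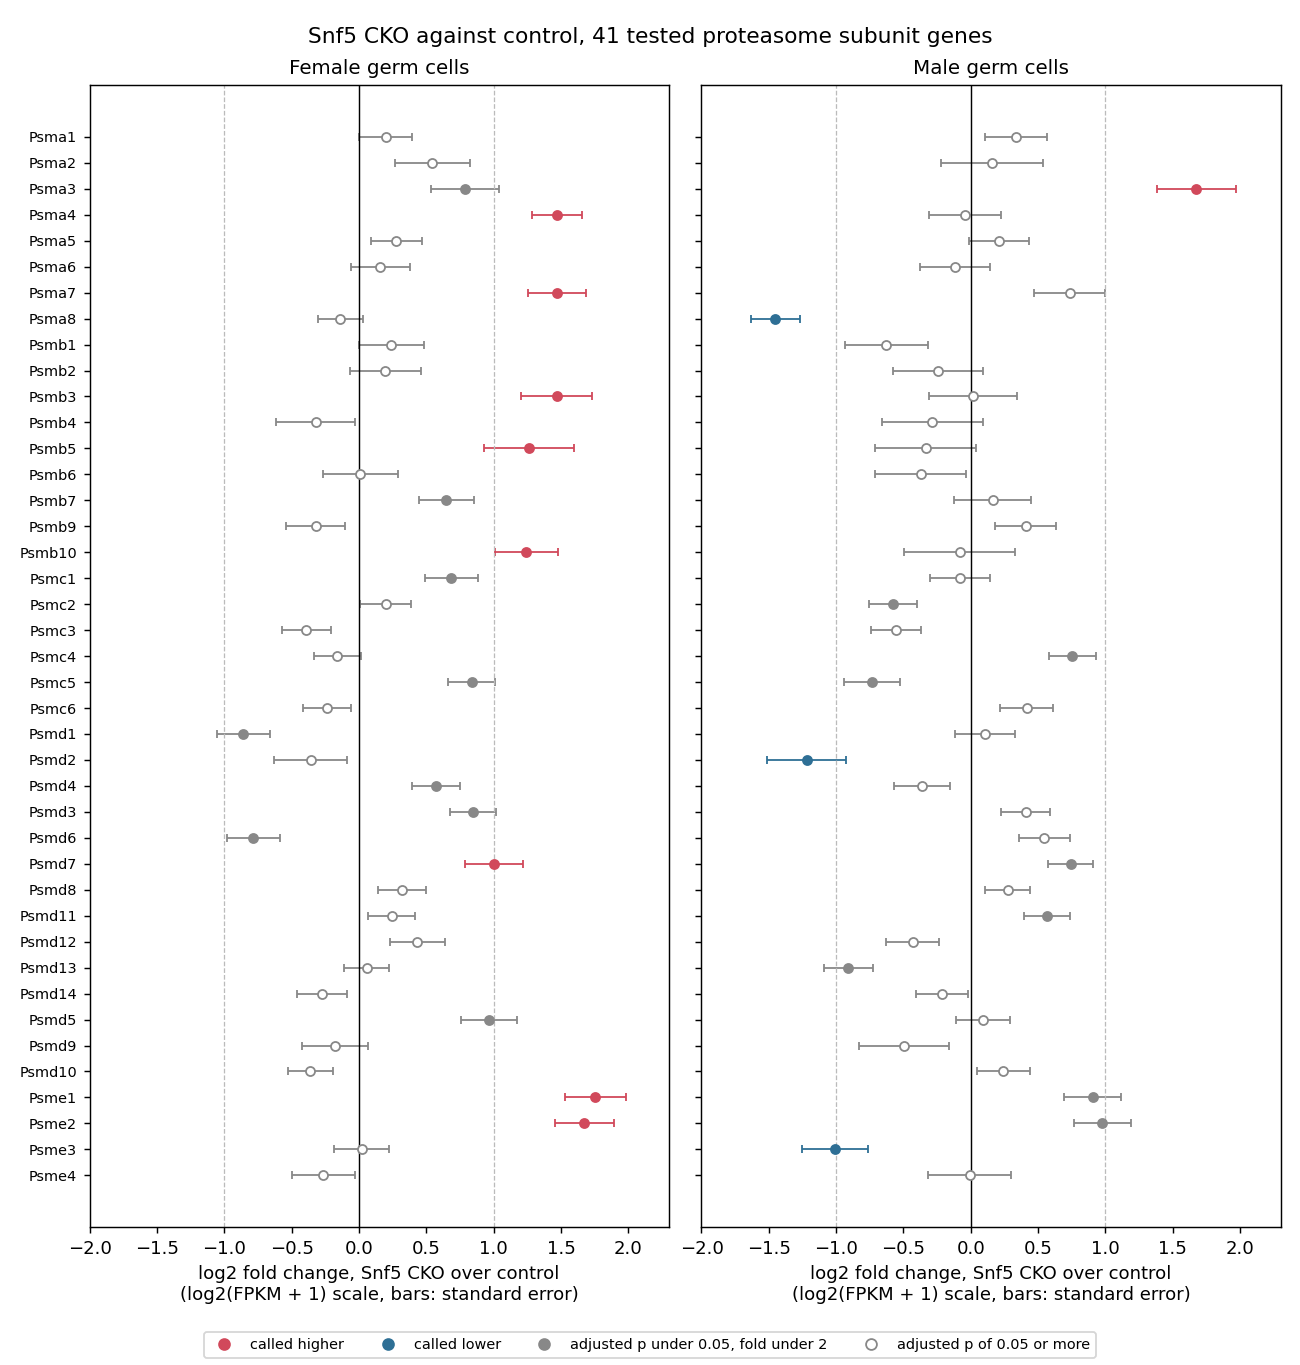
Log2 fold change of Snf5 CKO over control, on the log2(FPKM + 1) scale, for the 41 tested members in females (left) and males (right). Bars are standard errors of the limma fit, red points were called higher, blue points called lower, filled grey points had an adjusted p under 0.05 without reaching a log2 fold change of 1, and open points did not pass; 8 genes are red in females, and 1 is red and 3 are blue in males.

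Of the alpha subunits Psma1 to Psma7, 3 of 7 rose in female Snf5 CKO germ cells, where 27.0% of all genes tested rose, and the other 4 did not pass. With the replicate block 6 rose, a count that has no share of all genes beside it. For 7 of 7 both Snf5 CKO libraries lay above both controls, as for 36.4% of all genes, and the median log2 fold change was 0.54. Psma4 was at 97.9 and 104 FPKM in control and 265 and 299.999 FPKM in Snf5 CKO, which is 2.79-fold higher (a log2 fold change of 1.47, SE 0.19, adjusted p = 0.00077). Psma7 was at 115 and 145 FPKM in control and 336 and 385 FPKM in Snf5 CKO and so 2.77-fold higher (a log2 fold change of 1.47, SE 0.22, adjusted p = 0.0013). For both genes the lower Snf5 CKO library exceeded the higher control by far more than the replicates differed. Psma3 was at 210.1 and 287 FPKM in control and 383 and 470.2 FPKM in Snf5 CKO. It rose without being called (a log2 fold change of 0.79, SE 0.25, adjusted p = 0.031). With single libraries left out its log2 fold change was between 0.56 and 1.01, and it did not pass in every such fit. The other alpha subunits, Psma1, Psma2, Psma5 and Psma6, had log2 fold changes between 0.16 and 0.54 and did not pass.

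In males the same ring gave another picture. Psma3 was the sole member called higher, at 121 and 169 FPKM in control and 383 and 549 FPKM in Snf5 CKO, which is 3.22-fold higher (a log2 fold change of 1.68, SE 0.30, adjusted p = 0.01). It was not called once control replicate 1 was left out (1.44, adjusted p = 0.056). Psma4, which was called in females, was at 339 and 421 FPKM in control and 319.8 and 423 FPKM in Snf5 CKO in males, where the groups overlapped (log2 fold change -0.040). Psma7 was at 213 and 279 FPKM in control and 359 and 461 FPKM in Snf5 CKO (a log2 fold change of 0.73, SE 0.26, adjusted p = 0.074), above the controls in both libraries, and its adjusted p was 0.00012 with the replicate block. Psma1, Psma2, Psma5 and Psma6 had log2 fold changes between -0.12 and 0.34 in males and did not pass. The block brought the number of alpha subunits that rose in males from 1 to 4. The quantified locus of Psma3 extended 19476 bases beyond the annotated gene in females and 21474 in males, and that of Psma6 177601 bases in both, so that transcripts of neighbouring sequence may be counted with them.

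Psma8, the germ cell subunit, was transcribed at a lower level than Psma7 in every library and fell in the male Snf5 CKO. In male germ cells it was at 40.3 and 48.3 FPKM in control and 14.7 and 16.3 FPKM in Snf5 CKO, which is 2.86-fold lower (a log2 fold change of -1.45, SE 0.18, adjusted p = 0.0042), and both Snf5 CKO libraries were below both controls. In female germ cells it was at 21.5 and 23.8 FPKM in control and 20.1 and 20.8 FPKM in Snf5 CKO. The female groups did not overlap but the difference was small and did not pass (a log2 fold change of -0.14, SE 0.17, adjusted p = 0.5), and under median-of-ratios scaling it was 0.019. Psma8 kept to 20.1 to 23.8 FPKM in the female libraries while Psma7 differed 2.77-fold.

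The share of Psma8 in the sum of Psma7 and Psma8 does not depend on the scaling of a library. In females this share was 15.7% and 14.04% in control and 5.65% and 5.11% in Snf5 CKO, so it went from 14.9% ± 1.18 to 5.38% ± 0.381 (SD). In males the share was 15.9% and 14.7% in control and 3.94% and 3.42% in Snf5 CKO, from 15.3% ± 0.812 to 3.68% ± 0.366 (SD). The shares of the controls of both sexes lay between 14.04% and 15.9% and those of Snf5 CKO between 3.42% and 5.65%, and no library of one genotype entered the range of the other. The lower share came with a higher Psma7 in females, and in males with a lower Psma8 beside a Psma7 that was higher in both libraries without passing.

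**Figure D3:**
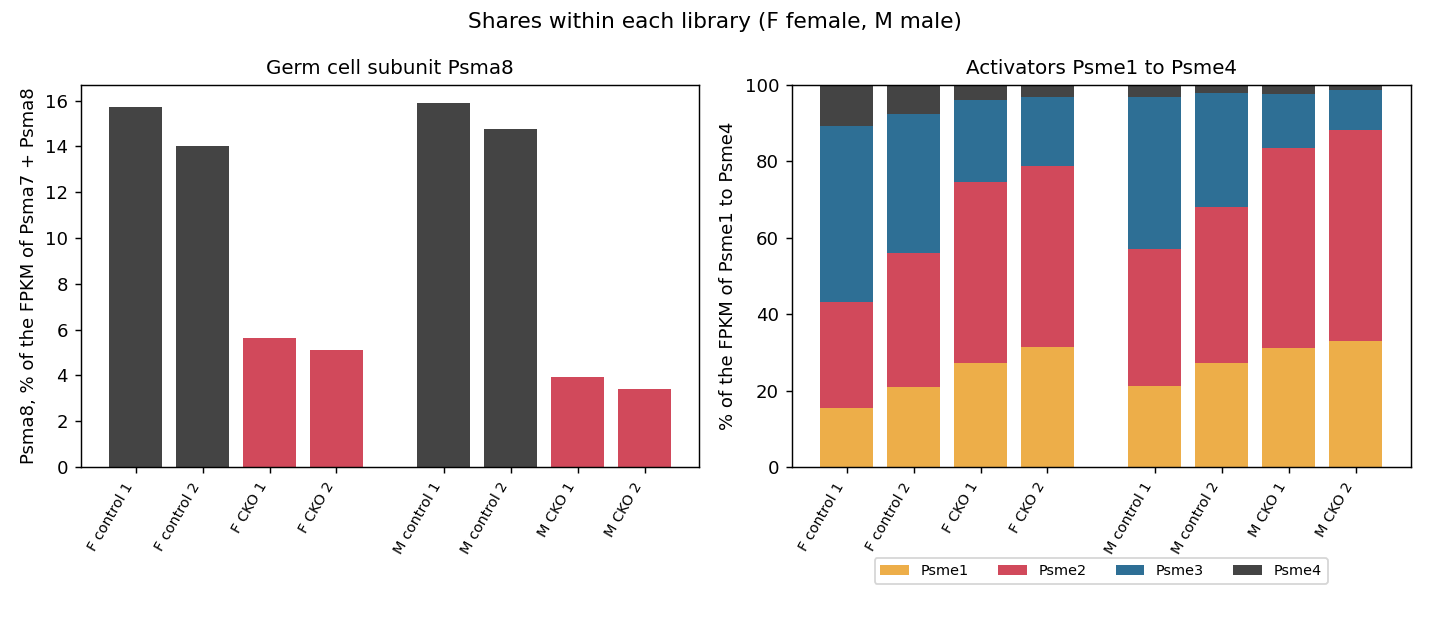
Left, Psma8 as a percentage of the summed FPKM of Psma7 and Psma8 in each of the 8 libraries, dark for control and red for Snf5 CKO. Right, the composition of the summed FPKM of Psme1 to Psme4 in the same libraries; the share of Psma8 is 14.04% to 15.9% in controls and 3.42% to 5.65% in Snf5 CKO, and Psme3 and Psme4 take smaller shares in Snf5 CKO of females.

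The promoters of the alpha genes called in females are shown because both rose to a similar extent, by 1.47 and 1.47 on the log2 scale. The sequences are RefSeq windows of GRCm38.p6 (mm10), 300 bases long, from 250 bases before to 50 bases after the annotated start, written 5′ to 3′ on the strand of the gene. The Psma4 window is chr9:54950609-54950908 on the plus strand, the Psma7 window is chr2:180042415-180042714 on the minus strand, and capitals mark matches of the motifs described after the results on the activators: an E-box, CACGTG, in Psma4 and an NF-Y box, CCAAT, in Psma7.
Psma4: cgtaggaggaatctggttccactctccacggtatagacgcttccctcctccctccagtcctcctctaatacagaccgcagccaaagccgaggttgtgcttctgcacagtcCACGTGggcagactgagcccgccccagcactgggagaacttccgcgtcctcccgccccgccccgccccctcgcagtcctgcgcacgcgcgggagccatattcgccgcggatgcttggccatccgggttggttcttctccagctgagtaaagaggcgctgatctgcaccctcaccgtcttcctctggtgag
Psma7: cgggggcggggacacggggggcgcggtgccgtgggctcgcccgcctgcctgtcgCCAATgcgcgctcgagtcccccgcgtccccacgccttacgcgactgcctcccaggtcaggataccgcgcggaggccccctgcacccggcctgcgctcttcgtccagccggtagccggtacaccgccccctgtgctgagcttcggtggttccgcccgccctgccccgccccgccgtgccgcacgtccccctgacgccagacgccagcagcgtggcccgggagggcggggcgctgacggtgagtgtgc

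The constitutive beta subunits comprise Psmb1 to Psmb4, which carry no active site, and the catalytic Psmb5, Psmb6 and Psmb7, which hold the chymotrypsin-like, caspase-like and trypsin-like sites. In females Psmb3 was at 64.7 and 97.3 FPKM in control and 189 and 259 FPKM in Snf5 CKO, 2.77-fold higher (a log2 fold change of 1.47, SE 0.26, adjusted p = 0.0031). Psmb5 was at 136 and 239 FPKM in control and 355 and 529.8 FPKM in Snf5 CKO, 2.36-fold higher (a log2 fold change of 1.26, SE 0.34, adjusted p = 0.015), and Psmb7 rose from 124 and 141 FPKM to 187 and 231 FPKM (a log2 fold change of 0.65, SE 0.20, adjusted p = 0.029). In both Psmb3 and Psmb5 replicate 2 was higher than replicate 1 in both genotypes. The call of Psmb5 rested on single libraries: the log2 fold change was 0.86 (adjusted p = 0.088) without control replicate 1 and 0.98 without Snf5 CKO replicate 2. Psmb1, Psmb2, Psmb4 and Psmb6 overlapped between the groups, with log2 fold changes between -0.32 and 0.24. The female locus of Psmb3 reached 14576 bases beyond the annotated gene, and the Psmb5 locus of both sexes also held the microRNA gene Mir686.

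The catalytic subunits moved unequally in females, as Psmb5 was called, Psmb7 rose and Psmb6 had a log2 fold change of 0.010. With single libraries left out Psmb7 had log2 fold changes between 0.50 and 0.80 and did not pass in every such fit. In males the groups overlapped for 3 of 3 catalytic subunits and none passed in the main fit. With the replicate block, however, Psmb5 and Psmb6 fell (adjusted p = 0.0018 and 0.0012) and Psmb7 rose (adjusted p = 0.038). Psmb5 was at 519.8 and 826 FPKM in control and 421 and 641 FPKM in Snf5 CKO, with a log2 fold change of -0.33. Psmb7 was at 263 and 344 FPKM in control and 282 and 402 FPKM in Snf5 CKO, with a log2 fold change of 0.16. Of the structural subunits in males, Psmb1 was lower in both Snf5 CKO libraries, at 549 and 713 FPKM in control and 338 and 485 FPKM in Snf5 CKO (a log2 fold change of -0.63, SE 0.31, adjusted p = 0.15, and 0.00033 with the replicate block), while Psmb3 was at 303 and 444 FPKM in control and 303 and 454 FPKM in Snf5 CKO and overlapped (log2 fold change 0.016). Psmb2, Psmb4 and Psmb6 overlapped too, with log2 fold changes between -0.37 and -0.24. With the replicate block Psmb2 and Psmb4 fell as well (adjusted p = 0.012 and 0.0076). The Psmb5 promoter is shown as that of the catalytic subunit called in females. Its window lies at chr14:54617946-54618245 on the minus strand, in the same layout, and capitals mark TGACGTCGC, a match of the core of the antioxidant response element through which NFE2L1 and NFE2L2 act.
Psmb5: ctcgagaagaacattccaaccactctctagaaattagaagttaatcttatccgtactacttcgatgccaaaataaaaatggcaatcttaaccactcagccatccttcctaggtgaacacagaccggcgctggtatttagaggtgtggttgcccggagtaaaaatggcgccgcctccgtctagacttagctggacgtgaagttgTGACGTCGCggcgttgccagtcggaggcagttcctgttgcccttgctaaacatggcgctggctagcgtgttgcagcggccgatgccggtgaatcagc

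The immunoproteasome subunits Psmb8, Psmb9 and Psmb10 replace Psmb5, Psmb6 and Psmb7 and remained scarce beside them. Psmb10 was called higher in females, at 1.26 and 2.11 FPKM in control and 4.77 and 5.83 FPKM in Snf5 CKO, 3.15-fold higher (a log2 fold change of 1.24, SE 0.23, adjusted p = 0.0036). Its share in the sum of Psmb7 and Psmb10 was 1.004% and 1.47% in control and 2.48% and 2.46% in Snf5 CKO. In males Psmb10, whose locus was merged with that of the chymotrypsin-like protease gene Ctrl, was at 4.51 and 9.53 FPKM in control and 4.56 and 8.29 FPKM in Snf5 CKO and overlapped, as did its share of 1.69% and 2.69% in control and 1.59% and 2.02% in Snf5 CKO. Psmb9 lay lower in both female Snf5 CKO libraries (a log2 fold change of -0.32, SE 0.22, adjusted p = 0.24) and higher in both male ones (a log2 fold change of 0.41, SE 0.23, adjusted p = 0.2), and passed in neither sex. Its share beside Psmb6 was 0.227% and 0.302% in control and 0.181% and 0.162% in Snf5 CKO in females and 0.211% and 0.242% in control and 0.476% and 0.410% in Snf5 CKO in males. The share of Psmb8 beside Psmb5 did not exceed 0.0484% in any library.

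The ATPases Psmc1 to Psmc6 form the ring of the regulatory particle that unfolds the substrate, and they went different ways in both sexes. In females Psmc1, at 137 and 114 FPKM in control and 212 and 193 FPKM in Snf5 CKO (a log2 fold change of 0.69, SE 0.20, adjusted p = 0.02), and Psmc5, at 94.1 and 89.4 FPKM in control and 171 and 159 FPKM in Snf5 CKO (a log2 fold change of 0.84, SE 0.18, adjusted p = 0.0058), rose. With single libraries left out Psmc1 had log2 fold changes between 0.56 and 0.82 and did not pass in every such fit. Psmc3, Psmc4 and Psmc6 were lower in both female Snf5 CKO libraries, with log2 fold changes of -0.39, -0.16 and -0.24 that did not pass. Psmc2 overlapped (0.20). In males Psmc4 was at 103 and 111 FPKM in control and 180.1 and 183 FPKM in Snf5 CKO and rose (a log2 fold change of 0.75, SE 0.18, adjusted p = 0.022). Psmc5 fell from 416 and 413 FPKM to 243 and 255 FPKM (a log2 fold change of -0.73, SE 0.21, adjusted p = 0.038), as did Psmc2, from 200.5 and 199 FPKM to 133 and 135 FPKM (a log2 fold change of -0.58, SE 0.18, adjusted p = 0.048). Psmc1, Psmc3 and Psmc6 had log2 fold changes of -0.079, -0.56 and 0.41 in males. Although the subunits of this ring are built in at equal number, their log2 fold changes spanned -0.39 to 0.84 in females and -0.73 to 0.75 in males. With the replicate block 2 ATPases rose and 2 fell in females, and 2 rose and 3 fell in males.

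The non-ATPase base subunits Psmd1 and Psmd2 are the large scaffolds to which ubiquitin receptors and shuttle factors dock, and Psmd4 is itself a ubiquitin receptor. Psmd2 was the most abundant gene of the regulatory particle in male controls and was called lower in males, at 825 and 608 FPKM in control and 348 and 264 FPKM in Snf5 CKO, 2.34-fold lower (a log2 fold change of -1.22, SE 0.29, adjusted p = 0.024). Each of the 4 male libraries decided its call, since the adjusted p was between 0.052 and 0.15 when any one was left out. In females Psmd2 was at 438 and 321 FPKM in control and 344 and 249 FPKM in Snf5 CKO and overlapped (log2 fold change -0.36). Psmd1 fell in females, from 266 and 239 FPKM to 149 and 129 FPKM (a log2 fold change of -0.86, SE 0.20, adjusted p = 0.0085), and overlapped in males (0.11). Psmd4 rose in females (a log2 fold change of 0.57, SE 0.18, adjusted p = 0.028) and lay lower in both male Snf5 CKO libraries without passing (a log2 fold change of -0.36, SE 0.21, adjusted p = 0.21).

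Among the lid subunits, which hold the deubiquitinase Psmd14 and its partner Psmd7, one gene was called. Psmd7 was at 55.1 and 40.1 FPKM in control and 105 and 86.4 FPKM in Snf5 CKO in females, 2.01-fold higher (a log2 fold change of 1.01, SE 0.22, adjusted p = 0.0065). It was no longer called without control replicate 2 (log2 fold change 0.78) or without Snf5 CKO replicate 1 (0.86). In males Psmd7 also rose, from 72.1 and 68.6 FPKM to 123 and 114 FPKM (a log2 fold change of 0.74, SE 0.17, adjusted p = 0.02). Psmd14 itself was at 194 and 171 FPKM in control and 154 and 147 FPKM in Snf5 CKO in females and at 204 and 226 FPKM in control and 176 and 194 FPKM in Snf5 CKO in males, lower in both Snf5 CKO libraries of each sex, and did not pass (log2 fold changes -0.27 and -0.21). In 8 of 8 lid genes the groups did not overlap in either sex, 6 above and 2 below the controls in females and 5 above and 3 below in males, whereas most genes of the tables were also without overlap (36.4% above and 45.1% below in females and 34.6% and 40.0% in males).

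The scaffold subunits of the lid differed in direction. In females Psmd3 rose from 57.4 and 49.96 FPKM to 97.01 and 97.1 FPKM (a log2 fold change of 0.85, SE 0.17, adjusted p = 0.005) and Psmd6 fell from 366 and 351 FPKM to 207 and 209 FPKM (a log2 fold change of -0.78, SE 0.20, adjusted p = 0.013). Psmd3 was called under median-of-ratios scaling (1.01). In males Psmd11 rose from 90.2 and 88.7 FPKM to 138 and 129 FPKM (a log2 fold change of 0.57, SE 0.17, adjusted p = 0.045) and Psmd13 fell from 196 and 215 FPKM to 106 and 112 FPKM (a log2 fold change of -0.91, SE 0.18, adjusted p = 0.014). Under common-sum scaling Psmd13 was called, at -1.10. Psmd8 and Psmd12 had log2 fold changes of 0.32 and 0.43 in females and 0.27 and -0.43 in males and did not pass. Psmd11 (0.24) and Psmd13 (0.057) in females and Psmd3 (0.41) and Psmd6 (0.55) in males did not pass either. With the replicate block 5 lid genes rose and 2 fell in females, and 5 rose and 3 fell in males.

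The chaperones Psmd5, Psmd9 and Psmd10 assist the assembly of the base and are not part of the finished particle. Psmd5 rose in females from 68.2 and 55.3 FPKM to 138 and 106 FPKM (a log2 fold change of 0.97, SE 0.21, adjusted p = 0.0068), just under the call, and was called under median-of-ratios scaling (1.13), without control replicate 1 (1.11) and without Snf5 CKO replicate 2 (1.15). In males its groups overlapped (0.090). Psmd9 was at 10.2 and 9.21 FPKM in control and 6.66 and 10.7 FPKM in Snf5 CKO in females and at 37.5 and 58.01 FPKM in control and 25.4 and 42.4 FPKM in Snf5 CKO in males, with overlap in both sexes. Psmd10, also known as gankyrin, had log2 fold changes of -0.36 in females and 0.24 in males, with no overlap between the groups, and did not pass.

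The activators Psme1 and Psme2, which together form the interferon-inducible ring PA28, rose in both sexes, although in males they no longer passed with any 1 library left out, whereas Psme3 and Psme4 passed upward in neither. In females Psme1 was at 31.6 and 47.2 FPKM in control and 131 and 135 FPKM in Snf5 CKO, 3.37-fold higher (a log2 fold change of 1.76, SE 0.22, adjusted p = 0.00075), the largest log2 fold change among the members in either sex. Psme2 was at 56.2 and 79.7 FPKM in control and 229 and 204 FPKM in Snf5 CKO, 3.18-fold higher (a log2 fold change of 1.67, SE 0.22, adjusted p = 0.00089). Both genes lay in Snf5 CKO above the controls by more than the replicates differed.

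In males Psme1 was at 106 and 130.2 FPKM in control and 205 and 238 FPKM in Snf5 CKO (a log2 fold change of 0.91, SE 0.21, adjusted p = 0.022), and Psme2 at 179.9 and 196 FPKM in control and 343 and 401 FPKM in Snf5 CKO (a log2 fold change of 0.98, SE 0.21, adjusted p = 0.018). They rose 1.88-fold and 1.98-fold without being called, and were called under median-of-ratios scaling (1.07 and 1.14). Neither passed when any 1 male library was left out, with log2 fold changes between 0.76 and 1.05 for Psme1 and between 0.86 and 1.09 for Psme2. With the replicate block their adjusted p was 8.9e-05 and 7.7e-05. Psme3, which forms a nuclear activator ring of its own, was called lower in males, at 199 and 143 FPKM in control and 92.8 and 74.7 FPKM in Snf5 CKO (a log2 fold change of -1.01, SE 0.25, adjusted p = 0.025). It was no longer called under median-of-ratios scaling (-0.85), without control replicate 1 (adjusted p = 0.13) or without Snf5 CKO replicate 2 (adjusted p = 0.099). In females Psme3 was at 93.8 and 82.6 FPKM in control and 103 and 77.8 FPKM in Snf5 CKO and overlapped (log2 fold change 0.021). Psme4 was at 22.04 and 17.3 FPKM in control and 19.4 and 13.3 FPKM in Snf5 CKO in females (a log2 fold change of -0.26) and at 16.2 and 10.7 FPKM in control and 16.3 and 10.4 FPKM in Snf5 CKO in males (log2 fold change -0.0089), again with overlap.

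Among the activators the share of Psme1 and Psme2 did not overlap between the genotypes in either sex. The pair made up 43.1% and 55.95% of the summed FPKM of Psme1 to Psme4 in female controls and 74.7% and 78.8% in female Snf5 CKO, and in males 57.03% and 68.04% in control and 83.4% and 88.3% in Snf5 CKO. The share of Psme3 went from 41.2% ± 6.82 to 19.7% ± 2.29 (SD) in females and from 34.7% ± 7.07 to 12.2% ± 2.70 (SD) in males. For Psme4 the female share was 10.8% and 7.62% in control and 4.02% and 3.10% in Snf5 CKO, without overlap, and the male share was 3.22% and 2.22% in control and 2.48% and 1.44% in Snf5 CKO, with overlap. The Psme4 level itself overlapped between the groups in both sexes. The Psme1 locus of both sexes reached 3725 bases beyond the annotated gene and the female Psme2 locus 12559 bases, while the male Psme2 locus matched the gene to within 1 base.

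The promoters of Psme1 and Psme2 are shown because these genes are neighbours on chromosome 14 and had the largest log2 fold changes of all members in females. The Psme1 window is chr14:55578244-55578543 on the plus strand, and that of Psme2 is chr14:55591052-55591351 on the minus strand, from RefSeq on GRCm38.p6 as before. Capitals mark TTTCGCTTTC in Psme1, a match on the opposite strand of the interferon-stimulated response element (GAAA, any 2 bases, GAAA), and CTCCTCAG in Psme2, a match of CNCCTCAG, the motif bound by the meiotic regulator STRA8. RefSeq has a further start of Psme2, whose window is not shown.
Psme1: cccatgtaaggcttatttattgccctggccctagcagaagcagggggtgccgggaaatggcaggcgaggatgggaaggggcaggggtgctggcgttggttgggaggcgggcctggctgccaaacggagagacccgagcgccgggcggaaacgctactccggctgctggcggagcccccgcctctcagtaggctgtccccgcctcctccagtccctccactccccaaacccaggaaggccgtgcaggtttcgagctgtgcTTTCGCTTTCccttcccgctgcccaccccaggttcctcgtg
Psme2: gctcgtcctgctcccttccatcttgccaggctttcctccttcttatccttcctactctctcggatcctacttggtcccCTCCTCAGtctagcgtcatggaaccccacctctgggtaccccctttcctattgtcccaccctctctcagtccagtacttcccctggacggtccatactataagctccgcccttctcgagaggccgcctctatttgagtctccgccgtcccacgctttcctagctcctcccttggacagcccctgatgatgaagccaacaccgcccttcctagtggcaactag

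Promoter windows were found for 36 of the 43 genes (39 windows). No window was found for Psma8, Psmb1, Psmb2, Psmb7, Psmc3, Psmd3 and Psmd7. Motifs were searched on both strands in these and in the 32851 windows of all genes. TGACNNNGC was present in 15.4% of the member windows and 12.4% of all windows, CCAAT in 35.9% and 37.4%, CNCCTCAG in 15.4% and 7.94%, CACGTG in 10.3% and 7.15%, and the interferon-stimulated response element in 10.3% and 3.44%. The last corresponds to 4 genes, Psmb3, Psmd4, Psmd9 and Psme1. CNCCTCAG was in 6 member windows but 5 genes, because Psme2 was counted more than once. CACGTG was in Psma4, Psmb10, Psmd9 and Psme3, and TGACNNNGC in Psmb5, Psmb6, Psmc6, Psmd9, Psmd12 and Psme4. These matches describe the letters of the windows and were not tested against the fold changes.

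Other genes of the pathway were taken from lists of assembly factors, transcription regulators, shuttle factors, ubiquitin genes and genes of antigen presentation. The regulatory particle subunit Adrm1, a ubiquitin receptor, did not pass in either sex (log2 fold changes 0.38 and 0.068), and neither did Shfm1, a small subunit of the lid (-0.26 and 0.057). Pomp, which matures the core particle, rose in females from 129 and 126 FPKM to 222 and 248 FPKM (a log2 fold change of 0.88, SE 0.19, adjusted p = 0.0062) and had a log2 fold change of 0.39 in males. Of the 8 tested assembly factors and regulators 2 were called lower in females, as were 21.6% of all genes, namely the core particle chaperone Psmg4 (-1.02) and AI314180, the proteasome adaptor also named Ecpas (-1.48). AI314180 was called lower in males with the replicate block (log2 fold change -1.03).

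Of the regulators of proteasome gene transcription, Nfe2l1 did not pass in either sex (log2 fold changes 0.38 and -0.25). Nfe2l2, the regulator of the antioxidant response, was at 7.22 and 7.15 FPKM in control and 20.4 and 18.9999 FPKM in Snf5 CKO in females and was called higher (a log2 fold change of 1.34, SE 0.17, adjusted p = 0.0008), while in males it was at 12.2 and 10.95 FPKM in control and 18.8 and 15.8 FPKM in Snf5 CKO (a log2 fold change of 0.54, SE 0.19, adjusted p = 0.068). Nfyb, a subunit of NF-Y, was also called higher in females (2.26). Ngly1, the glycanase that activates NFE2L1, was called lower in females (-1.43) and higher in males (1.58). Mafg, whose female locus was merged with Sirt7, was called lower in females (-1.78), and Nfe2l3 in males (-1.18). This made 2 calls higher and 2 lower among 11 tested regulators in females, and 1 higher and 1 lower among 12 in males. Of all genes tested, the shares called higher and lower were 17.3% and 21.6% in females and 14.4% and 17.5% in males.

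Among shuttle factors and deubiquitinases, which bring substrates to the proteasome or trim their ubiquitin, Ubqln4 (2.58) was called higher in females. In males Ubqln4 (2.14), Ubqln2 (2.03) and the deubiquitinase Uchl5 (1.36) were called higher and Ubqln1 (-1.25) lower. Of 6 ubiquitin genes and activating enzymes, the E1 enzymes were called in opposite directions in females, Uba1 higher (1.43), from 86.8 and 86.02 FPKM to 273 and 200.2 FPKM, and Uba6 lower (-2.27), from 148 and 133 FPKM to 30.2 and 26.6 FPKM.

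Genes of antigen presentation and interferon response were called in both directions in females. H2-K1, a class I heavy chain, was called lower, at 878 and 842 FPKM in control and 44.6 and 68.7 FPKM in Snf5 CKO (a log2 fold change of -3.93, SE 0.25, adjusted p = 9.9e-05), and H2-D1, whose locus included H2-L, was similarly lower (-3.95). B2m, the class I light chain, was called lower too, at 21.3 and 36.8 FPKM in control and 6.31 and 14.6 FPKM in Snf5 CKO (a log2 fold change of -1.44, SE 0.40, adjusted p = 0.018). Of the regulators of the interferon response, Irf8 (-1.44) was called lower and Irf1 (1.95) higher. Tapbp, which helps to load peptides onto class I molecules, was called higher (1.43, in a locus with Rgl2 and Zbtb22). Tap1, a peptide transporter, was at 0.851 and 1.28 FPKM in control and 2.52 and 1.75 FPKM in Snf5 CKO in females and at 0.745 and 0.666 FPKM in control and 1.63 and 1.91 FPKM in Snf5 CKO in males, where it rose (a log2 fold change of 0.70, SE 0.17, adjusted p = 0.023). In males B2m had a log2 fold change of -0.28 and did not pass, and H2-K1, in a locus with H2-K2, was at 1.92 and 2.08 FPKM in control and 6.997 and 10.1 FPKM in Snf5 CKO and called higher (a log2 fold change of 1.65, SE 0.23, adjusted p = 0.0056). In females the higher Psme1 and Psme2 stood beside lower class I genes.

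The direction of the members differed between the sexes about as often as that of all genes. For 9 of the 41 tested members (21.95%, against 19.6% of the 10624 genes tested in both tables) both Snf5 CKO libraries were above both controls in both sexes, among them Psma3, Psma7, Psmd7, Psme1 and Psme2, and for 3 (7.32%, against 21.3%), Psma8, Psmc3 and Psmd14, they were below in both. In 10 members (24.4%, against 20.8%) the groups separated in opposite directions. Psmc5 was at 94.1 and 89.4 FPKM in control and 171 and 159 FPKM in Snf5 CKO in females and 416 and 413 FPKM in control and 243 and 255 FPKM in Snf5 CKO in males, and Psmd6 at 366 and 351 FPKM in control and 207 and 209 FPKM in Snf5 CKO in females and 143 and 147 FPKM in control and 199.9 and 225 FPKM in Snf5 CKO in males. The others were Psmb9, Psmc1, Psmc4, Psmc6, Psmd4, Psmd10, Psmd12 and Psmd13. Since the sexes were quantified in separate runs, the difference between them was not tested.

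Comparing the levels of the 2 tables as a description, the sexes lay closer together in Snf5 CKO. After subtraction of the median over the members, the female minus male difference in log2(FPKM + 1) had an SD across the 41 members of 0.883 in control and 0.412 in Snf5 CKO. The difference exceeded 1 in size for 14 members in control and for 1, Psmd9, in Snf5 CKO. It was smaller in Snf5 CKO for 30 of the 41 members (73.2%). Over the 10624 genes tested in both tables the SD was 1.47 in control and 0.763 in Snf5 CKO, and 78.2% were closer. Psmd6 (2.04 in control and 0.23 in Snf5 CKO), Psma3 (1.51 and 0.15) and Psmb3 (-1.46 and -0.48) had among the largest differences in control, while Psmd9 kept its male bias (-1.42 and -1.58). The quantified loci of some genes also had other ends in the 2 sexes. Psmb3 reached 14576 bases beyond the annotated gene in females and 0 in males, and Psmc2 28006 and 0. The part of these ends in the differences was not tested.

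**Figure D4:**
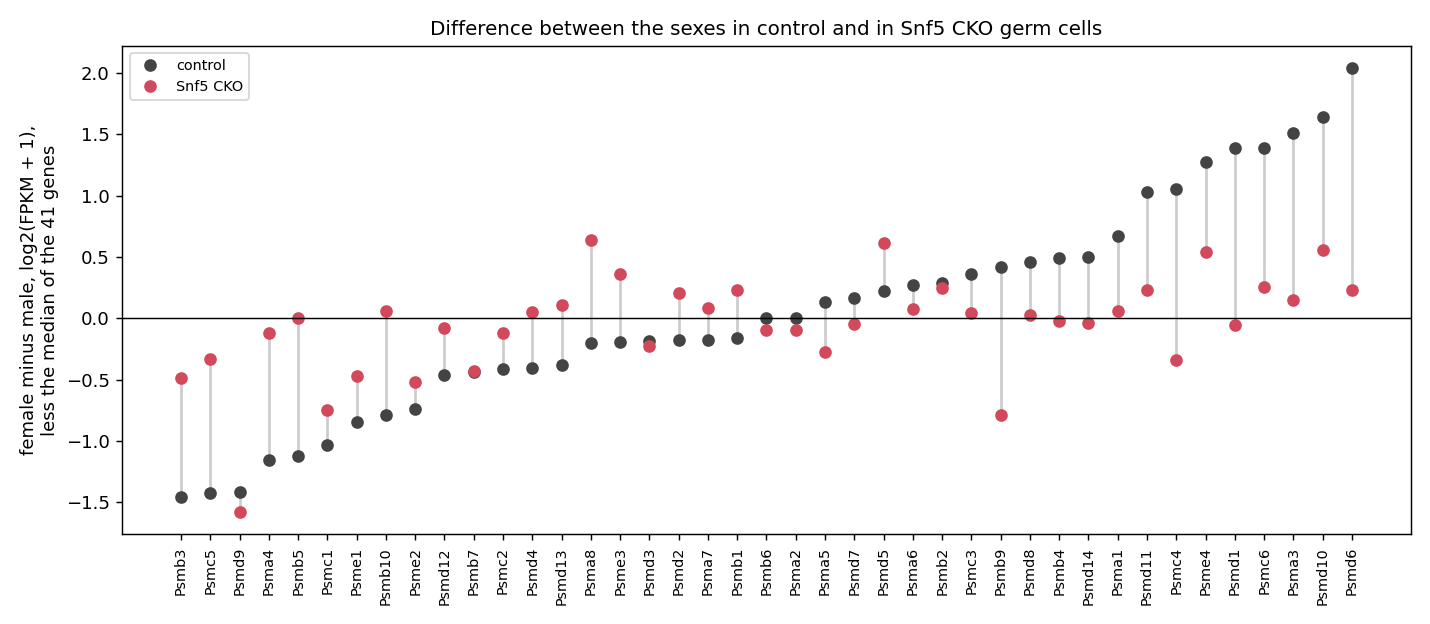
Female minus male log2(FPKM + 1) of the 41 tested members, less the median over the members, in control (dark) and Snf5 CKO (red). Grey lines join the points of a gene, and genes are ordered by the control value. The tables of the sexes were normalized separately, and the loci of some genes had other ends in each, so the plot describes levels without a test. Past 1 in size lie 14 control points but 1 Snf5 CKO point.

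The replicates differed in a way that followed transcript length. For members with a transcript of at most 1500 bases (19 genes) the median of replicate 2 minus replicate 1 in log2(FPKM + 1) was 0.20 in control and 0.18 in Snf5 CKO in females and 0.31 and 0.36 in males. Over longer transcripts (22 genes) it was -0.15, -0.053, 0.0015 and 0.038 in the same order. Spearman's rho of this difference with length across the 41 members, which share their libraries, was -0.64 and -0.45 in females and -0.55 and -0.56 in males. Over all tested genes with a known transcript length it was -0.38 and -0.52 in females and -0.57 and -0.62 in males, so the pattern was not particular to the members. In the longer control transcripts Psmd1 and Psmd2, for example, replicate 1 was the higher one, and in the short Psmb3 and Psmb5 replicate 2 was. The difference ran the same way in both genotypes.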

How the data were processed

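Smart-seq cDNA of sorted germ cells was sequenced, and the authors mapped the reads with TopHat and deposited FPKM values from Cufflinks and Cuffdiff on UCSC mm10, with 1 table per sex. The annotation version and the library normalization are not given in the sources used here. Their confidence bounds (16 columns) were left out. Named loci with a mean of at least 1 FPKM were fitted per sex with limma 3.58.1 (R 4.3.3) on log2(FPKM + 1), with eBayes and a trend. Calls required a log2 fold change of at least 1 in size and a Benjamini-Hochberg adjusted p under 0.05. The scripts were tested on simulated data. Replicate numbers were read as a shared batch, since the labels name the raw files of replicates 1 and 2 in different styles. The deviations of replicate 2 from replicate 1 in control and Snf5 CKO correlated across genes at 0.500 in females and 0.607 in males, and the block was an alternative. The members and lists were chosen with earlier results of these data known, and the interferon motif was added later. Values per library are given for members called, for the activators, catalytic subunits, Psma7 and Psma8, for the 5 largest fold changes and for the 3 most and least abundant members of each sex. Values of further members that rose or fell are also given per library. Some genes of the pathway lists are not reported here. Locus ends were compared with GENCODE vM21. The labels do not state that replicates are separate litters, so p-values measure the spread between these samples.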

Additional observations from a re-analysis of the deposited data

Results flagged for a closer look

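For 10 members every Snf5 CKO library lay on one side of the controls in females and on the other side in males, which is a difference in direction between the sexes. These are 24.4% of the 41 tested members, and 20.8% of all genes tested in both tables did the same. The difference itself was not tested, as the sexes were quantified separately. The log2 fold changes in females and males were 0.84 and -0.73 for Psmc5, 0.69 and -0.079 for Psmc1, 0.57 and -0.36 for Psmd4, 0.43 and -0.43 for Psmd12, and 0.057 and -0.91 for Psmd13. They were -0.78 and 0.55 for Psmd6, -0.16 and 0.75 for Psmc4, -0.24 and 0.41 for Psmc6, -0.36 and 0.24 for Psmd10, and -0.32 and 0.41 for Psmb9. Both values passed the adjusted p for Psmc5 alone.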

How the results depend on the processing

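The female counts of 8 members called higher and 0 lower stayed within 1.5 times of themselves under all alternatives run, between 7 and 10 and at 0. The female median log2 fold change of 0.24 was 0.40 with median-of-ratios scaling and 0.20 to 0.32 with single libraries left out. The male median of -0.0089 was -0.024 with a mean of at least 5 FPKM, -0.18 with a common sum, 0.14 with median of ratios and -0.21 to 0.093 with single libraries left out. Members called higher in males numbered 3 with median of ratios and 0 to 1 with a library left out, and members called lower 1 to 2 with a library left out. The replicate block, with 8 and 0 calls in females and 1 and 3 in males, changed no call of a member. Signs turned for values close to 0. With median of ratios these were, in females, Psma8 (0.019) and Psmc4 (0.0030), and in males Psma4 (0.12), Psma6 (0.042), Psmb10 (0.056), Psmc1 (0.082) and Psme4 (0.14). With a common sum they were, in males, Psma2 (-0.032), Psmb3 (-0.17), Psmb7 (-0.028), Psmd1 (-0.084) and Psmd5 (-0.098). With single libraries left out the ranges were -0.19 to 0.21 for Psmb6, -0.18 to 0.22 for Psme3 and -0.48 to 0.13 for Psmd9 in females. In males they were -0.21 to 0.53 for Psma2, -0.27 to 0.31 for Psmb3, -0.093 to 0.42 for Psmb7, -0.31 to 0.29 for Psme4, -0.24 to 0.16 for Psma4, -0.66 to 0.093 for Psmb4, -0.55 to 0.38 for Psmb10, -0.055 to 0.27 for Psmd1, -0.056 to 0.23 for Psmd5, -0.28 to 0.041 for Psma6 and -0.51 to 0.018 for Psmb2. The causes were not tested. Of the recomputed fold changes of single members, 923 kept their direction and side of the threshold, 37 changed sign, and 8 became and 12 lost a call. The difference in the male share of Psmb10 beside Psmb7, of -0.383 percentage points, was -0.887 to 0.12 with single libraries left out. Among all genes called, those higher in Snf5 CKO made up 44.5% in females and 45.1% in males, against 45.7% and 34.8% with a common sum and 52.5% and 54.1% with median of ratios. With a library left out, the single remaining library of its group is assumed to vary like the other group. The unknown depth limits what can be said of Psmb8 and Psmb11.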
